A study of Arabidopsis thaliana with 8 samples.

Results

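The interaction of heat and anoxia is the part of a transcript's response to both stresses that the log2 differences under each stress alone do not add up to. For every probe set it was computed on the log2 intensity scale as the mean of seedlings given heat and then anoxia, minus the mean after heat, minus the mean under anoxia, plus the control mean. The same number is the anoxia difference after heat minus the anoxia difference without heat, so 0 means that fold changes multiply. All 8 arrays of the series entered it. Of 22746 probe sets other than array controls, 14535 reached log2 4 on at least 2 arrays and were measured. In 9235 of these the means in heat and anoxia and in heat both lay between log2 6 and 13, away from the array's floor and its saturation. These probe sets are called in range below and carry most of what follows, and in 8388 of them all 4 group means lay there.

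All groups were whole seedlings of *Arabidopsis thaliana* ecotype Columbia 0, grown in the dark for 4 days at 23 °C in liquid Murashige-Skoog medium with 30 mM sucrose, and each group had 2 biological replicates. The heat and anoxia group was held at 38 °C for 90 minutes and was then kept without oxygen for 6 h at 23 °C. The heat group was held at 38 °C for 90 minutes, the anoxia group was kept without oxygen for 6 h at 23 °C, and the control group was left untreated at 23 °C. No group was heated and then kept for 6 h in air, so anoxia after heat and the 6 h that passed after heat cannot be told apart, and a difference under anoxia after heat holds both. In whole seedlings, fewer cells of a type and less RNA per cell cannot be told apart either.

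Heat unfolds proteins, and plant cells answer with heat shock transcription factors that switch on small heat shock proteins and larger chaperones. Without oxygen, mitochondrial respiration stops, group VII ethylene response factors become stable, and genes of fermentation and a core set of hypoxia genes are switched on. In Arabidopsis seedlings a mild heat treatment is known to improve survival of a later period of anoxia, which is why the joint response is of interest.

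The replicates of a group correlated at 0.965 to 0.979, and 5.52% to 10.8% of probe sets differed by more than 2-fold between the replicates of a group. A 25S ribosomal RNA control on the array, which was not part of the comparisons, read 2816.3 in Heat and anoxia replicate 2 and 4675.7 in Anoxia replicate 2. It read 6.9 to 95.5 on the other 6 arrays. Its part in the results was not tested, and values without both arrays are given beside many of the results. That fit leaves the Anoxia and the Heat and anoxia groups with a single array each. A call lost in it cannot be told apart from the mere loss of arrays. With 2 arrays a group, the median standard error of an interaction was 0.42, so that p-values rest on the spread between these replicates and only large interactions could be called.

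In a few percent of probe sets the difference under anoxia was not the same in heated as in unheated seedlings. Over all 14535 probe sets, 542 had a higher interaction (3.73%) and 356 a lower one (2.45%), where called means a limma p below 0.05 after Benjamini-Hochberg adjustment and a size of 2-fold or more. In range, 222 were higher (2.40%) and 189 lower (2.05%), and with all 4 means in range 189 were higher (2.25%) and 98 lower (1.17%). The median interaction was -0.04 over all measured probe sets and -0.08 in range. Without regard to adjustment, 3452 of the 14535 probe sets had p below 0.05, and 1878 of the 9235 in range.

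The counts changed when single arrays were left out. Each such fit, here and below, left a group with a single array and had fewer residual degrees of freedom. A lost call or a lower count there need not mean that a result rested on the array left out. In range, the higher count was 99 and 47 without Heat and anoxia replicate 1 or 2, 100 and 56 without Heat replicate 1 or 2, 82 and 266 without Anoxia replicate 1 or 2, and 88 and 78 without Control replicate 1 or 2. The lower count in range was 74, 78, 76, 69, 115, 240, 118 and 83 in the same order of arrays left out. Without both arrays of high 25S signal it was 18 higher and 56 lower. Over all probe sets the higher count was 328, 185, 281, 198, 250, 598, 292 and 257 in that order of arrays, and the lower count was 166, 199, 162, 153, 217, 445, 235 and 179.

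The anoxia difference after heat (heat and anoxia minus heat) and that without heat (anoxia minus control) share no array. Across the 14535 probe sets they correlated at r = 0.31, or 0.18 without Anoxia replicate 2 and 0.20 without both arrays of high 25S signal, as a description, since probe sets are not independent and each difference carries its own noise. After heat, 746 probe sets were higher under anoxia (5.13%) and 678 lower (4.66%), and without heat 574 were higher (3.95%) and 860 lower (5.92%). The shared rises numbered 183, which is 24.5% of the rises after heat and 31.9% of those without heat. The shared falls numbered 75, which is 11.1% of the falls after heat and 8.72% of those without heat, and 34 probe sets were called in opposite directions.

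These counts also changed in the fits without single arrays, which had fewer residual degrees of freedom. After heat, the higher count was 466 and 212 without Heat and anoxia replicate 1 or 2 and 348 and 288 without Heat replicate 1 or 2, and the lower count was 235, 160, 110 and 144 in the same order. Without heat, the higher count was 358 without Anoxia replicate 2, and the lower count was 502 and 454 without Control replicate 1 or 2. The shared rises numbered 88 without Heat and anoxia replicate 2, 114 and 121 without Heat replicate 1 or 2 and 117 without Anoxia replicate 2. The shared falls numbered 34 and 28 without Heat and anoxia replicate 1 or 2, 21 and 26 without Heat replicate 1 or 2, 153 and 45 without Anoxia replicate 1 or 2, and 38 and 46 without Control replicate 1 or 2. The opposite calls numbered 4 to 26 over the arrays left out, lowest without Heat and anoxia replicate 2.

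The shares moved with them. Over the arrays left out, the shared rises made up 15.3% (without Anoxia replicate 2) to 42.0% (without Heat replicate 2) of the rises after heat, with 41.5% without Heat and anoxia replicate 2. They made up 16.8% (without Heat and anoxia replicate 2) to 35.8% (without Control replicate 2) of those without heat. The shared falls made up 5.59% (without Anoxia replicate 2) to 19.1% (without Heat replicate 1) of the falls after heat, and 2.79% (without Heat replicate 1) to 20.5% (without Anoxia replicate 1) of those without heat. Without both arrays of high 25S signal the calls were 213 higher and 228 lower after heat and 286 higher and 413 lower without heat, with 62 shared rises, 17 shared falls and 5 opposite calls. With no filter on low values, 423 were higher and 338 lower after heat, with 104 shared rises, 42 shared falls and 13 opposite calls.

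The heat responses were set side by side in the same way. The heat difference under anoxia (heat and anoxia minus anoxia) and that in air (heat minus control) also share no array, and they correlated at r = 0.71 across the same probe sets. The joint group spent a further 6 h after heat, so time after heat and lack of oxygen cannot be told apart between these differences. Under anoxia 1857 probe sets were higher after heat (12.8%) and 2493 lower (17.2%), against 1524 (10.5%) and 2605 (17.9%) in air. The shared rises numbered 1191, or 64.1% of those under anoxia and 78.1% of those in air. The shared falls numbered 1098, or 44.0% of those under anoxia and 42.1% of those in air. Without both arrays of high 25S signal 1631 were lower after heat under anoxia, and the shared falls were 27.9% of those in air.

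**Figure D1:**
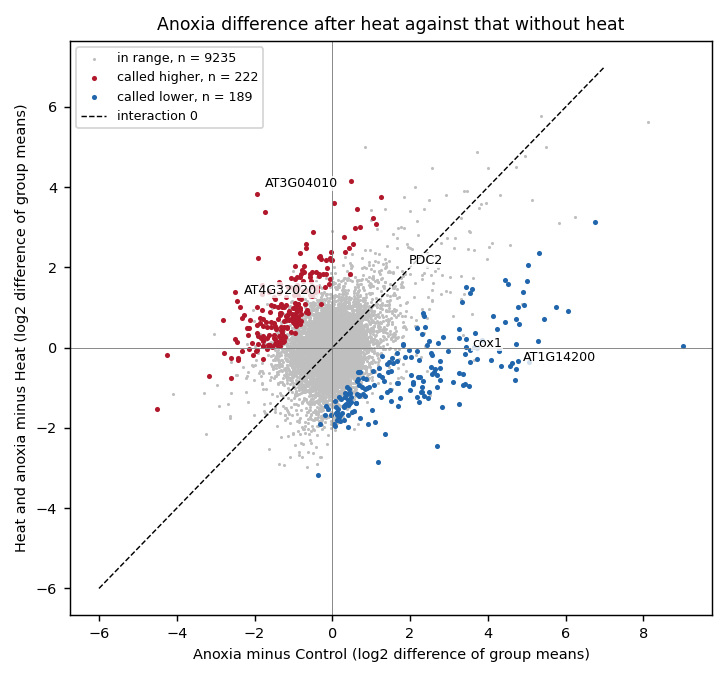
Each point is a probe set in range (n = 9235), with the anoxia difference without heat (Anoxia minus Control, log2) on the x axis and that after heat (Heat and anoxia minus Heat, log2) on the y axis; the dashed line marks an interaction of 0. The 222 probe sets called higher lie above the line, mostly left of 0 on the x axis or above 0 on the y axis, the 189 called lower lie below it, and PDC2 lies close to the line with nearly equal differences of 1.90 and 1.78.

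By group means, most probe sets with a higher interaction in range were at least 2-fold lower under anoxia without heat but not after it, or at least 2-fold higher after heat but not without it. Of the 222 probe sets, 97 were at least 2-fold lower under anoxia than in control and within 2-fold after heat. A further 70 were within 2-fold without heat and at least 2-fold higher after heat, and 27 went down without heat and up after it. The heat and anoxia mean was the highest of the 4 means in 95 of them and the control mean in 119. The lowest mean was that in heat in 115 and that in anoxia in 100. These splits follow in part from choosing probe sets by their interaction and describe the set only.

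By group means, the commonest form of a lower interaction in range was a transcript that was higher under anoxia without heat and within 2-fold after heat. Of the 189 probe sets, 90 were at least 2-fold higher under anoxia than in control and within 2-fold after heat. A further 53 were within 2-fold without heat and at least 2-fold lower after heat, and 21 went up without heat and down after it. The mean in heat was the highest of the 4 in 105, and the control mean was the lowest in 130. Control means lay below log2 4, near the floor, in 49 of the 189, where the size of a log2 difference depends on the background model. On the linear intensity scale 22 of the 189 had an interaction of the opposite sign, against 0 of the 222 called higher.

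Among the genes with a higher interaction, AT3G04010, a member of the glycosyl hydrolase family 17 of cell wall glucanases, stood furthest out in range. It read 9.84 and 9.95 in heat and anoxia, 6.08 and 6.06 in heat, 6.02 and 7.04 in anoxia, and 8.40 and 8.52 in control, in log2 intensity. Either stress alone left it below the control arrays, and both together put it above them, with no overlap between those groups. Its interaction was 5.75 ± 0.47 (SE; limma adjusted p = 0.00108).

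AT4G32020 read 12.41 and 12.28 in heat and anoxia, 11.50 and 10.84 in heat, 8.34 and 8.51 in anoxia, and 10.92 and 10.82 in control. It was low on the anoxia arrays alone, and after heat the anoxia arrays were the highest of the 8. Its interaction was 3.62 ± 0.38 (limma adjusted p = 0.00300). AT3G19030 showed another form, with 10.71 and 11.003 in heat and anoxia, 7.56 and 6.94 in heat, 9.69 and 9.99 in anoxia, and 9.89 and 9.67 in control. Here the heat arrays stood apart below the other 6, and anoxia without heat differed from control by only 0.06. Its interaction was 3.55 ± 0.40 (limma adjusted p = 0.00382).

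AT1G16850 stood apart in the joint treatment alone. It read 9.13 and 8.82 in heat and anoxia, 6.64 and 6.34 in heat, 6.28 and 5.58 in anoxia, and 6.89 and 6.31 in control, and the interaction was 3.17 ± 0.46 (limma adjusted p = 0.00972). The GDSL-type lipase gene AT5G55050 was lowest under anoxia alone. It read 8.08 and 8.87 in heat and anoxia, 7.28 and 7.62 in heat, 6.05 and 5.93 in anoxia, and 8.65 and 8.08 in control, so that only the anoxia arrays lay clearly apart (interaction 3.39 ± 0.47, limma adjusted p = 0.00820). AT4G29950, which encodes a protein with a Rab GTPase-activating domain, had 9.54 and 9.87 in heat and anoxia, 8.13 and 7.23 in heat, 7.76 and 7.68 in anoxia, and 8.78 and 8.60 in control. The joint treatment was again above each other group, with an interaction of 2.99 ± 0.45 (limma adjusted p = 0.0110). These 3 genes missed the threshold without both arrays of high 25S signal, at adjusted p = 0.0592, 0.0607 and 0.0866 for AT1G16850, AT5G55050 and AT4G29950.

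The calls of the receptor-like kinase gene AT2G39360 (3.14, limma adjusted p = 0.0321) and of the GDSL-type lipase gene AT5G45950 (3.06, limma adjusted p = 0.0220) were lost in most fits without a single array. AT2G39360 was called without Heat and anoxia replicate 1 or Anoxia replicate 2 and lost without any other array, and AT5G45950 was called without Anoxia replicate 1 or 2 and lost without any other. Their interactions without 1 array ran from 2.51 to 3.77 and from 2.41 to 3.70.

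**Figure D2:**
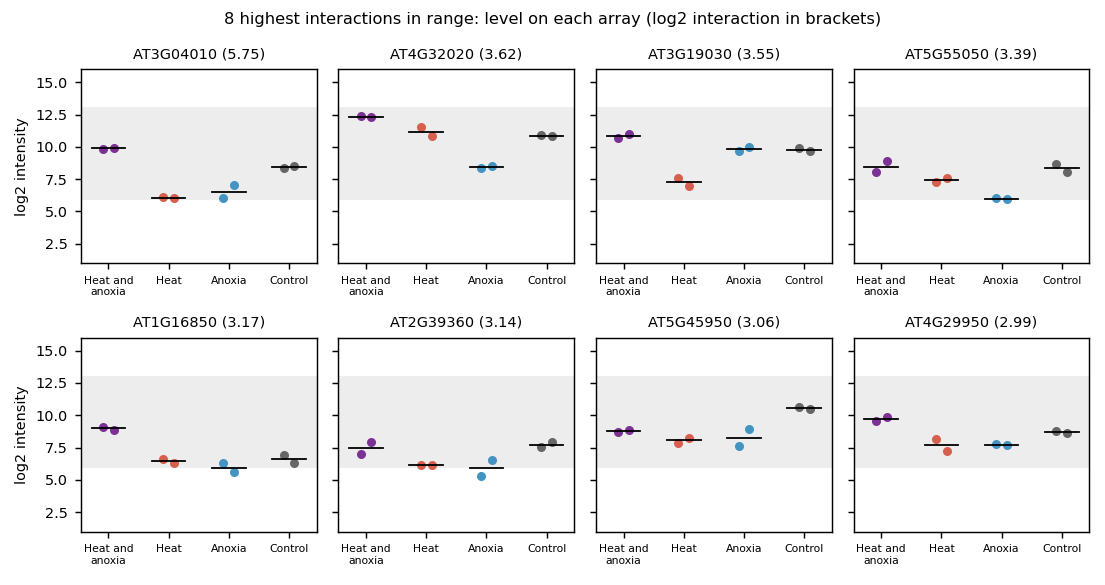
Log2 intensity on each array (points) and group mean (bar) of the 8 named genes with the highest interactions in range, with groups in the order heat and anoxia, heat, anoxia and control, and the range from log2 6 to 13 shaded. AT3G04010 is above its controls only in the joint treatment, AT4G32020 and AT5G55050 are lowest under anoxia alone, and AT3G19030 is low only after heat alone.

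With all 4 means in range 189 probe sets were called higher (2.25%), and 86 of them match 1 gene. Of these 86, 12 had a gene symbol. All 12 were chosen after their values were seen, except XTH16, which was also among the list members. Whether these 12 genes share a function was not tested. They were, among others, EXLA1, an expansin-like protein (2.70), CSLC04, which makes the xyloglucan backbone (2.50), the xyloglucan-modifying enzyme gene XTH16 (1.85), TBL37 of the family that acetylates wall polymers (1.84), CSLD2, a cellulose synthase-like protein of root hairs (1.78), and SKU5, a membrane-anchored protein of directed root growth (1.67). FER, the receptor kinase FERONIA that monitors the wall, stood at 1.55, and BIM1, a brassinosteroid transcription factor, at 1.89. The Rab acceptor genes PRA1.B4, PRA1.E and PRA7, whose proteins sit in the secretory pathway, stood at 1.83, 1.55 and 1.46.

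Their levels fell into separate forms. CSLC04 read 6.44 and 7.43 in heat and anoxia, 6.92 and 6.29 in heat, 6.75 and 7.37 in anoxia, and 9.04 and 9.42 in control, so each stress alone took it to the same low level and the joint treatment took it no lower. PRA1.B4 read 9.05 and 9.27 in heat and anoxia, 9.26 and 8.99 in heat, 7.25 and 7.30 in anoxia, and 9.19 and 8.96 in control, low only under anoxia alone. The transcription factor gene BZIP53, a regulator of amino acid metabolism in energy shortage, followed the form of PRA1.B4. It read 10.16 and 10.25 in heat and anoxia, 10.32 and 10.15 in heat, 7.90 and 8.53 in anoxia, and 10.07 and 9.74 in control (interaction 1.65 ± 0.39, limma adjusted p = 0.0490). EXLA1 was high in the joint treatment alone, with 11.02 and 10.84 in heat and anoxia, 9.74 and 8.26 in heat, 8.02 and 8.31 in anoxia, and 9.08 and 8.80 in control.

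Of these 12 genes 0 kept the call without each array in turn. PRA1.B4 lost it without Heat and anoxia replicate 2, Heat replicate 2, Anoxia replicate 1 or Control replicate 1. PRA7 lost it whichever of the 8 arrays was left out, and the others lost it without 6 or 7 of them. EXLA1 kept it only without Heat replicate 1, FER and BZIP53 only without Anoxia replicate 2, and BIM1 only without Heat replicate 2. Without both arrays of high 25S signal 0 of the 12 kept it.

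Among the genes with a lower interaction, the nuclear gene furthest out in range was AT1G14200, a RING-type ubiquitin ligase gene. It read 12.29 and 11.89 in heat and anoxia, 12.55 and 12.68 in heat, 10.47 and 10.53 in anoxia, and 5.84 and 5.71 in control. Every stressed array lay far above the controls, and the joint treatment lay just below heat. Its interaction was -5.25 ± 0.33 (limma adjusted p = 0.000375). Another RING-type ubiquitin ligase gene, AT1G26800, had all 4 means in range and the same order. It read 12.78 and 12.66 in heat and anoxia, 12.76 and 12.82 in heat, 10.52 and 10.74 in anoxia, and 6.59 and 6.10 in control, with an interaction of -4.36 ± 0.35 (limma adjusted p = 0.00102). Heat with and without anoxia overlapped for this gene, while anoxia alone lay between them and control.

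AT4G27657 read 8.85 and 8.60 in heat and anoxia, 10.54 and 11.82 in heat, 5.93 and 5.87 in anoxia, and 3.10 and 3.31 in control, and its interaction was -5.15 ± 0.55 (limma adjusted p = 0.00315). It was lower in the joint treatment than in heat on every array, as was AT1G14200 but not AT1G26800. AT5G53680, which encodes an RNA-binding protein, read 12.53 and 12.93 in heat and anoxia, 12.04 and 12.002 in heat, 7.51 and 7.70 in anoxia, and 2.10 and 2.23 in control. Its log2 interaction was -4.73 ± 0.33 (limma adjusted p = 0.000507), but on the linear intensity scale the interaction was positive, at 2501 units, since the joint treatment exceeded heat by more units than anoxia exceeded control.

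In AT2G20670 anoxia alone lay at or above the joint treatment. It read 11.21 and 11.36 in heat and anoxia, 9.53 and 9.85 in heat, 11.43 and 11.80 in anoxia, and 7.58 and 6.64 in control. Its interaction was -2.91 ± 0.48 (limma adjusted p = 0.0149), and the call was lost without Heat and anoxia replicate 1 (adjusted p up to 0.0610 over the arrays left out) or Heat replicate 2, and without both arrays of high 25S signal.

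**Figure D3:**
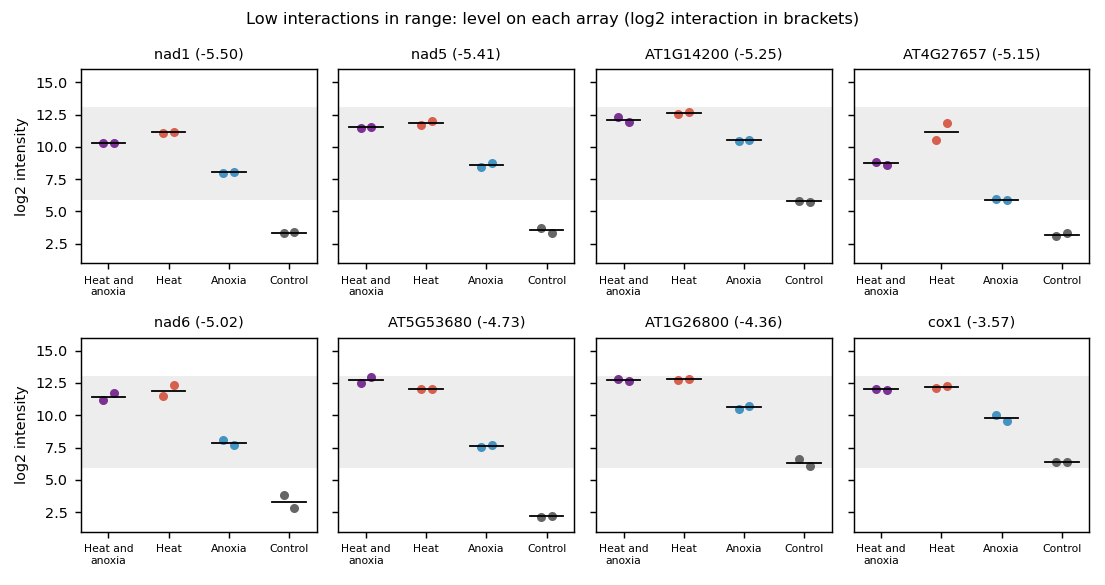
Log2 intensity on each array (points) and group mean (bar) of 8 genes with low interactions in range, with groups in the order heat and anoxia, heat, anoxia and control, and the range from log2 6 to 13 shaded. In each panel control is lowest and anoxia alone lies between control and heat, while the joint mean lies within 1 log2 unit of the heat mean except for AT4G27657, where it is 2.46 lower. AT2G07678, AT2G07707, psbA and AT2G20670, also named for low interactions in range, were left out by choice. Of these, AT2G07707 has the order shown. The joint minus heat difference is -1.41 for AT2G07678 and -1.86 for psbA, and in AT2G20670 anoxia alone lies above heat.

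Transcripts of mitochondrial genes, which encode subunits of the respiratory chain and of cytochrome c maturation, had low interactions. Of 16 measured genes 10 were called lower and 0 higher, where 2.45% of all probe sets and 2.05% of those in range were called lower. The list had a median interaction of -3.34 against -0.04 over all probe sets tested. Over all arrays left out in turn, 9 or 10 of them were called lower, and without both arrays of high 25S signal 9 were. Under anoxia without heat 11 of the 16 were called higher than in control (median difference 2.73), where 3.95% of all probe sets were. After heat limma called 0 of 16 under anoxia, with 3 at an unadjusted p below 0.05 (median difference -0.39). Over all probe sets 5.13% were called higher and 4.66% lower there, so 0 of 16 is near those shares.

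The complex I gene nad5 read 11.47 and 11.57 in heat and anoxia, 11.71 and 12.04 in heat, 8.40 and 8.76 in anoxia, and 3.75 and 3.31 in control on one probe set. Heat took it far above anoxia alone, and adding anoxia to heat left it near the heat level (interaction -5.41 ± 0.37, limma adjusted p = 0.000507). Both joint arrays lay somewhat below both heat arrays. The same held on another probe set of the gene, with an interaction of -4.79. The complex I genes nad1 and nad6 had -5.50 ± 0.29 (adjusted p = 0.000124) and -5.02 ± 0.59 (adjusted p = 0.00471). Both control arrays lay below log2 4 for these probe sets, near the floor. A brighter probe set of nad1 stood at -3.96 and was not called (limma adjusted p = 0.0631).

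The cytochrome oxidase gene cox1 had all 4 means in range. It read 12.06 and 11.98 in heat and anoxia, 12.08 and 12.30 in heat, 10.01 and 9.59 in anoxia, and 6.41 and 6.38 in control, so its order does not rest on the floor. Its interaction was -3.57 ± 0.33 (limma adjusted p = 0.00179), and it stayed called without each array in turn. The same held for ccb452, a gene of cytochrome c maturation (-2.69 ± 0.36, limma adjusted p = 0.00741). It read 11.12 and 11.21 in heat and anoxia, 11.81 and 11.88 in heat, 8.66 and 8.25 in anoxia, and 6.23 and 6.65 in control. The maturase gene matR stood at -4.29. The complex I genes nad4, nad7 and nad2 were not called, at -0.56, -0.05 and 0.04, and are named after their values had been looked at.

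Some of these probe sets may read more than 1 gene. Nuclear chromosome 2 carries a copy of much of the mitochondrial genome, and probe sets named for AT2G07678 (-4.65) and AT2G07707 (-2.99), which lie in that copy, cannot be told apart here from their mitochondrial counterparts. Without probe sets that may bind several transcripts, 7 of 12 mitochondrial genes were called lower. AT2G07707 lost its call without Heat and anoxia replicate 1, Heat replicate 1, Heat replicate 2 or both arrays of high 25S signal.

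Of 69 measured plastid genes 1 was called lower and 0 higher, against 2.45% called lower over all probe sets, with a median of -0.67 and 58 negative values. The median was -0.07 and -1.35 without Heat and anoxia replicate 1 or 2, -1.03 and -0.36 without Heat replicate 1 or 2, and -0.26 and -1.01 without Control replicate 1 or 2. It was -1.14 without both arrays of high 25S signal. Called lower were 3 genes without Heat and anoxia replicate 2, 2 without both arrays of high 25S signal or with the replicate block, and 0 with no filter. The called gene was psbA, which encodes the D1 protein of photosystem II. It read 10.25 and 11.48 in heat and anoxia, 12.63 and 12.82 in heat, 11.54 and 11.42 in anoxia, and 10.38 and 10.40 in control. Both joint arrays lay below both heat arrays, as they did for nad1, matR and ccb452 (interaction of psbA -2.95 ± 0.53, limma adjusted p = 0.0205), and the call was lost without Heat replicate 1 or 2, Anoxia replicate 1, or Control replicate 1 or 2.

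A further 4 genes with a symbol were among the 98 probe sets called lower with all 4 means in range (1.17%). They were again chosen after their values were seen. HEME1, a uroporphyrinogen decarboxylase of tetrapyrrole synthesis, read 7.29 and 7.21 in heat and anoxia, 9.38 and 8.90 in heat, 8.87 and 8.09 in anoxia, and 8.60 and 8.26 in control. It was low only in the joint treatment, as were FOLB2, an enzyme of folate synthesis, and FZL, a dynamin-like protein of thylakoid shape. Their interactions were -1.94 ± 0.45, -1.92 ± 0.42 and -1.53 ± 0.33 (limma adjusted p = 0.0485, 0.0395 and 0.0365). The thylakoid ascorbate peroxidase gene TAPX stood at -1.87. FZL lost its call without any array, HEME1 and FOLB2 without all but Anoxia replicate 2, and TAPX without all but Anoxia replicate 2 or Control replicate 1. All 4 lost it without both arrays of high 25S signal.

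Chaperones, the best known products of heat, had low interactions, but at the top of the scale. Of 11 measured small heat shock proteins, which hold unfolding proteins in solution, 7 were called lower and 0 higher, where 2.45% of all probe sets and 3.15% of those out of range were called lower. The list median was -5.34. Of the 2 in range 0 were called by limma, and 0 had an unadjusted p below 0.05. Of all probe sets in range 2.40% were called higher and 2.05% lower, and 1878 of 9235 had p below 0.05. So 0 of 2 is near those shares. AT1G53540 read 14.86 and 15.12 in heat and anoxia, 14.77 and 14.94 in heat, 10.98 and 11.65 in anoxia, and 2.29 and 2.17 in control. Anoxia raised it without heat and added nothing measurable after heat, where both groups overlapped close to the highest value on any array, log2 15.5 to 15.8. Its log2 interaction of -8.95 ± 0.39 (limma adjusted p = 4.34e-05) was positive, at 391 units, on the linear scale.

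AT1G52560 (-8.60), the mitochondrial small heat shock protein gene AT5G51440 (-7.03) and AT1G54050 (-6.38) had the same order of groups. An exception was AT2G19310, chosen after its values were seen, with 14.24 and 14.18 in heat and anoxia, 14.06 and 14.00 in heat, 8.82 and 8.87 in anoxia, and 8.66 and 7.28 in control. Anoxia alone left it near control, and its interaction was -0.70 (limma adjusted p = 0.514).

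Of 11 measured larger chaperones and co-chaperones 6 were called lower and 0 higher, beside the same 2.45% and 3.15%, with a median of -2.79. The count was 4 without both arrays of high 25S signal. Of the 4 in range 0 were called by limma and 0 had an unadjusted p below 0.05. Beside the shares of all probe sets in range, 0 of 4 is again near what any 4 would give. AT1G71000, a J-domain protein, read 13.68 and 13.56 in heat and anoxia, 14.12 and 14.05 in heat, 9.48 and 9.66 in anoxia, and 2.41 and 2.83 in control (interaction -7.42 ± 0.33, limma adjusted p = 4.39e-05). Here the joint treatment lay below heat on both arrays. Hop3, which links HSP70 to HSP90, stood at -4.86, the FK506-binding protein gene AT5G48570 at -4.30 and the J-domain gene AT2G20560 at -4.25. Hop3 lost its call without Heat replicate 2 or both arrays of high 25S signal, and its linear interaction was positive, at 2735 units. Each called chaperone had means above log2 13 both in heat and anoxia and in heat, so a further rise under anoxia could have gone unmeasured, and whether one did was not tested.

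**Figure D4:**
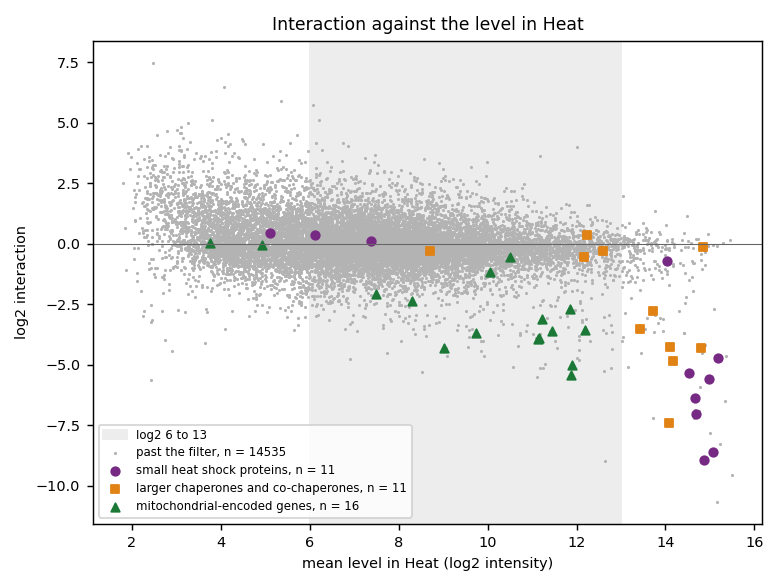
The log2 interaction (y axis) of each of the 14535 measured probe sets against its mean level in heat (log2 intensity, x axis), with the range from log2 6 to 13 shaded and 3 gene lists marked. Called small heat shock proteins and larger chaperones lie right of the shaded range with interactions down to -8.95, while the low mitochondrial genes lie inside it.

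Of 25 measured core hypoxia genes, the set that plants switch on in low oxygen across cell types, 2 were called lower and 0 higher, where 2.45% of all probe sets were called lower and 3.73% higher. The lower count was 1 without both arrays of high 25S signal. Of the 13 in range 0 were called by limma and 3 had an unadjusted p below 0.05, where 1878 of all 9235 in range did. The median was -0.70 over the list and -0.43 in range. Under anoxia 7 of the 25 were higher and 1 lower after heat, where 5.13% and 4.66% of all probe sets were, and 13 were higher and 0 lower without heat, where 3.95% and 5.92% were. The lower one was AT5G44730, named after its values were seen, and it lost that call without either Heat and anoxia array, either Heat array or both arrays of high 25S signal. The count of higher genes after heat was 1 and 3 without Heat and anoxia replicate 1 or 2 and 3 and 2 without Heat replicate 1 or 2, and 2 without both arrays of high 25S signal or with no filter. The count without heat was 8 and 7 without Anoxia replicate 1 or 2, and 5 without both arrays of high 25S signal.

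Both called members were heat-raised and out of range. AT3G10020, a hypoxia gene of unknown activity, read 14.89 and 14.85 in heat and anoxia, 14.80 and 14.83 in heat, 12.12 and 12.98 in anoxia, and 8.15 and 7.85 in control (interaction -4.50 ± 0.44, limma adjusted p = 0.00228). The universal stress protein gene AT3G03270 read 13.65 and 13.54 in heat and anoxia, 13.28 and 13.15 in heat, 11.83 and 11.71 in anoxia, and 9.23 and 9.04 in control (interaction -2.25 ± 0.30, limma adjusted p = 0.00750). Both groups given heat lay above anoxia alone. AT3G03270 missed the threshold without both arrays of high 25S signal (adjusted p = 0.0628).

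Other members turned on a single control array. AT5G10040 read 5.13 and 5.16 in heat and anoxia, 2.91 and 3.17 in heat, 9.48 and 8.89 in anoxia, and 2.66 and 5.99 in control. Its interaction was -2.75 (limma adjusted p = 0.231), or -1.09 without Control replicate 1 and -4.42, and then called, without Control replicate 2. AT5G66985 stood at -1.76, or -0.85 and -2.66 without Control replicate 1 or 2, and was called without Control replicate 2. CML38, a calmodulin-like protein that gathers in stress granules, stood at -1.46, or 0.54 and -3.45 without those arrays. The list median was 0.17 without Control replicate 1, -0.30 without Anoxia replicate 1 and -0.38 without Heat replicate 1, and 5 members were called lower without Control replicate 2.

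Of 4 measured fermentation and glycolysis genes 0 were called by limma, and 1 had an unadjusted p below 0.05, where 3452 of all 14535 probe sets did. PDC2, a pyruvate decarboxylase of ethanol fermentation, had an interaction near 0. It read 12.67 and 12.74 in heat and anoxia, 10.98 and 10.61 in heat, 10.43 and 10.74 in anoxia, and 8.62 and 8.99 in control. Heat and anoxia each lay above control, at levels that overlapped, and both together lay above each alone. The interaction was 0.12 ± 0.36 (limma adjusted p = 0.877).

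AT4G17260, the lactate dehydrogenase gene, leaned the other way without passing. It read 10.64 and 11.01 in heat and anoxia, 7.92 and 6.81 in heat, 9.22 and 9.02 in anoxia, and 7.78 and 7.74 in control, so the arrays under anoxia lay above those in air, and furthest after heat. Its interaction was 2.11 ± 0.51 (limma adjusted p = 0.0537), and it was called without Heat replicate 1, with the filter at log2 6, with the intensity trend and robust prior, with median centring and with the replicate block. Over its alternatives the adjusted p ran from 0.0236 to 0.221. PPDK and the glycolytic gene GAPC2 stood at -0.59 and -0.27.

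Genes of the unfolded protein response, which guards the endoplasmic reticulum, gave 7 positive values of 7 measured and 0 calls by limma, with a median of 0.40. All 7 were in range, and 2 had an unadjusted p below 0.05, where 1878 of all 9235 in range did. The co-chaperone gene ATERDJ3B read 11.62 and 11.78 in heat and anoxia, 11.54 and 11.09 in heat, 9.07 and 8.87 in anoxia, and 9.79 and 9.63 in control. Anoxia lay below control without heat and above heat after it (interaction 1.13 ± 0.35, limma adjusted p = 0.101). The calreticulin gene CRT1b stood at 1.08 (adjusted p = 0.0963), and the transcription factor genes BZIP17 and BZIP60 of this response at 0.76 and 0.40.

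Of 3 measured genes of oxidative stress and alternative respiration 1 was called lower (2.45% over all probe sets). AT2G21640, a marker of oxidative stress, read 11.50 and 11.96 in heat and anoxia, 10.47 and 10.07 in heat, 10.26 and 10.49 in anoxia, and 6.79 and 6.79 in control. Heat and anoxia alone reached overlapping levels, and the joint treatment lay above both but below their sum on the log2 scale (interaction -2.12 ± 0.37, limma adjusted p = 0.0182). On the linear scale it was positive, at 976 units, and the call was lost without Heat and anoxia replicate 1, Heat replicate 1, Control replicate 1 or 2, or both arrays of high 25S signal. The zinc finger gene STZ stood at -3.79 (adjusted p = 0.197) with control arrays at 2.94 and 7.29, and was called at -5.96 without Control replicate 2. It stood at -1.62 without Control replicate 1.

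Of 8 measured calmodulin-like genes, whose products bind calcium, 1 was called lower (2.45% over all probe sets), CML37 at -1.57 (limma adjusted p = 0.0321), and its call held only without Anoxia replicate 1. AT1G76640 stood at -2.97 (adjusted p = 0.0831) and was called without Anoxia replicate 1. CML42 stood at 1.97 (adjusted p = 0.152) and was called without Control replicate 1. Of 3 rapid stress transcription factors, STZ among them, 0 were called by limma and 2 had an unadjusted p below 0.05, where 3452 of all 14535 probe sets did. WRKY22, a regulator of immunity and of the response to submergence, had an interaction near 0. It read 9.50 and 9.99 in heat and anoxia, 5.04 and 3.96 in heat, 9.93 and 10.76 in anoxia, and 5.39 and 5.28 in control (interaction 0.24, limma adjusted p = 0.852).

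Class III peroxidases, secreted enzymes that loosen and cross-link cell walls, were called higher in 7 of 33 measured genes and lower in 0, where 3.73% of all probe sets were called higher. The list median was 1.00, with 30 positive values. In range 3 of 13 were called (2.40% of all in range) and the median was 0.57, and out of range 4 of 20 were called (6.04% of all out of range). With no filter 5 of 53 were called, with a median of 0.40. AT3G28200 read 7.41 and 7.39 in heat and anoxia, 6.60 and 6.72 in heat, 7.05 and 6.95 in anoxia, and 8.59 and 9.15 in control (interaction 2.61 ± 0.35, limma adjusted p = 0.00758). Both stresses alone lay below control, and the joint treatment lay between them and control. AT3G28200 and AT4G11290 (1.85) are named here because of their values.

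The highest peroxidase interaction was at the floor. AT1G30870, a gene of root hairs, read 2.61 and 2.56 in heat and anoxia, 2.66 and 2.91 in heat, 2.54 and 2.10 in anoxia, and 7.89 and 6.46 in control. All 6 stressed arrays lay below log2 4, and with both stresses it could not be measured to fall further (interaction 4.66 ± 0.61, limma adjusted p = 0.00708, and 0.0682 without both arrays of high 25S signal). AT1G34510 (3.58), also of root hairs, and AT2G39040 (3.08) were of similar form. In range, AT4G26010 read 6.65 and 5.94 in heat and anoxia, 7.57 and 8.09 in heat, 3.88 and 3.55 in anoxia, and 8.81 and 7.61 in control, lowest under anoxia alone and with both joint arrays below every heat and control array (interaction 2.96 ± 0.62, limma adjusted p = 0.0333). AT1G34510 and AT4G26010 kept the call only without Control replicate 2. The number of peroxidases called was 4 and 3 without Heat and anoxia replicate 1 or 2, 4 and 3 without Heat replicate 1 or 2, 3 without Anoxia replicate 1, 5 without Anoxia replicate 2, 4 without Control replicate 1 and 6 without Control replicate 2, and 1 without both arrays of high 25S signal.

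Of 13 measured expansins and xyloglucan endotransglucosylases, which let cell walls stretch, 1 was called higher (3.73% over all probe sets), XTH16, and 0 lower, with a median of 0.95. The higher count was 3 without Anoxia replicate 2, 2 without Control replicate 2, and 0 without either Heat and anoxia array, Heat replicate 2, Anoxia replicate 1 or both arrays of high 25S signal, and 1 gene was called lower without Control replicate 1. It was 2 with median centring and 3 with the replicate block. EXPA7 and EXPA18, expansins of root hairs, stood at 3.10 and 2.96 (limma adjusted p = 0.0656 and 0.0539), with all stressed arrays below log2 4. EXPA7 was called without Control replicate 1 or 2, at 2.04 and 4.16, and EXPA18 without Control replicate 2. XTH19 stood at 1.72 (adjusted p = 0.0864). The 5 measured root hair genes include the peroxidases AT1G30870, AT1G34510 and AT4G26010. The median of the 5 was 3.10, or 2.36 and 4.16 without Control replicate 1 or 2. Of these genes 4 lay out of range and 3 were called higher, where 3.73% of all probe sets and 6.04% of those out of range were. The count was 1 without any single array of the heat and anoxia, heat or anoxia groups, 2 and 5 without Control replicate 1 or 2, 0 without both arrays of high 25S signal, 1 with no filter and 2 of 4 with quantile normalization.

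**Figure D5:**
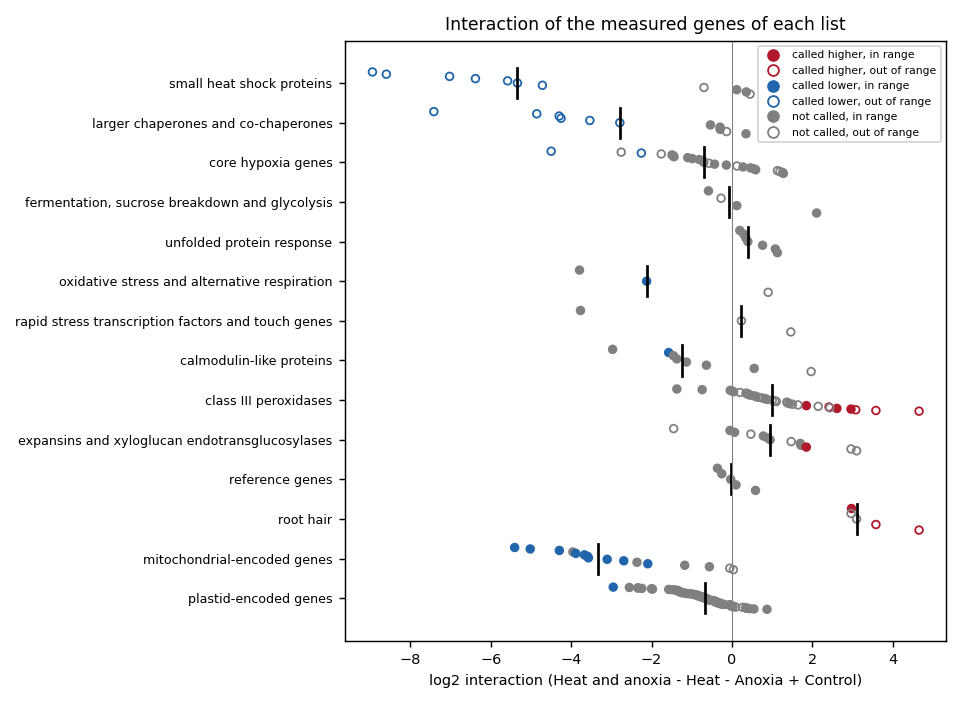
Log2 interaction (x axis) of each measured gene of the lists with at least 3 measured genes, with the list median as a black bar, red for called higher, blue for called lower, grey for not called, filled in range and open out of range. Called chaperones are open and called mitochondrial genes filled on the left, class III peroxidases and root hair genes lie mostly right of 0, and the 5 reference genes lie within 0.59 of 0.

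Part of the called probe sets outside the range lay at the ends of the scale. Of 320 called higher (6.04%) 111 had both the heat and anoxia mean and the heat mean below log2 4, and of 167 called lower (3.15%) 50 had both above log2 13. The highest named gene there, AT3G06070, was not of this form on all arrays. It read 7.53 and 8.31 in heat and anoxia, 4.60 and 3.52 in heat, 2.87 and 4.60 in anoxia, and 6.26 and 6.46 in control, so that the joint treatment lay above all other groups (interaction 6.48 ± 0.84, limma adjusted p = 0.00650). AT1G69760 stood at 5.89 with heat arrays at 6.78 and 3.94, and its call held only without Heat and anoxia replicate 1 or Heat replicate 1 or 2.

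A pair of genes with a symbol, chosen after the values were seen, was called in opposite directions. LTI30, a dehydrin, read 13.60 and 13.28 in heat and anoxia, 9.23 and 8.68 in heat, 8.83 and 9.57 in anoxia, and 7.53 and 7.09 in control. Heat and anoxia alone reached overlapping levels above control, and the joint treatment lay far above both (interaction 2.59 ± 0.48, limma adjusted p = 0.0220). COR15B, a protein that protects plastid membranes, read 3.71 and 4.39 in heat and anoxia, 8.61 and 8.46 in heat, 7.19 and 6.46 in anoxia, and 7.04 and 4.97 in control. It was lowest in the joint treatment, with no overlap with any other group (interaction -5.30 ± 0.87, limma adjusted p = 0.0149). LTI30 lost its call without either Heat and anoxia array, Heat replicate 2, Anoxia replicate 1 or Control replicate 1, and COR15B without either Heat array or Anoxia replicate 1. Both lost it without both arrays of high 25S signal.

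Of 5 measured genes used as references for expression, all in range, 0 were called by limma and 0 had an unadjusted p below 0.05. In range 2.40% of probe sets were called higher and 2.05% lower, and 1878 of 9235 had p below 0.05. So 0 of 5 is near those shares. The values ran from -0.36 for AT4G34270 to 0.59 for AT2G28390, with the tubulin gene TUB6 at -0.25 and a median of -0.03. Lists with 1 measured gene each gave no call: the ethylene transcription factor gene EIN3 stood at 0.45, the chlorophyll synthesis gene PORB at -0.96, the replication helicase gene PRL at -0.85, the seed oil body gene AT3G01570 at -0.97 and AT1G61590 of the root endodermis list at -0.45. Of these PORB alone had an unadjusted p below 0.05. No heat shock transcription factor was among the named probe sets, and none is reported.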

How the data were processed

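RNA of 8 samples was measured on Affymetrix ATH1 arrays, 1 array a sample. The authors deposited 1 linear intensity a probe set and array, computed with GCRMA per the submitters' processing notes, in a version that the sources used here do not give. The number of arrays limits the precision. The log2 of each intensity was taken with no further normalization. Probe sets at log2 4 or more on at least 2 arrays were kept, after 64 array controls were left out of 22810. A model of 4 group means was fitted (limma 3.58.1, R 4.3.3; lmFit, eBayes, 4 residual degrees of freedom), and the interaction contrast was adjusted by Benjamini-Hochberg over all 14535 probe sets. Python 3.11.15 and matplotlib 3.10.9 made the figures.

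Names came from the platform annotation and RefSeq, which name 1 gene for 13513 of 22746 probe sets, more than 1 for 503 and no gene for 8730; of 898 called probe sets 463 have 1 gene. Named genes come from called probe sets that match 1 gene. They kept their sign in each of the 16 ways to take 1 array per group. Taken were the 8 highest and 8 lowest in range and the 5 highest and 5 lowest with all 4 means in range. The 3 highest and 3 lowest out of range were also taken. Up to 4 members of each of 20 lists with the largest absolute interaction were added. Others are said to be chosen after their values were seen. All 898 called probe sets kept their sign in those 16 ways, so this condition removed none. The brightest probe set stood for a gene in lists. Members and lists were chosen with earlier results of these data known. The overlap of calls between differences that share no array was added after the values were seen.

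Interactions were simulated over 14535 probe sets, with 50 changed probe sets of each size. Recovery was 0% at log2 1, 22% at 2, 64% at 3 and 76% at 4. There were 7 false calls, and 0 calls were made in unchanged groups. These figures hold for the simulated noise only and give no false call rate for the real arrays. On the real arrays, deviations of same-numbered arrays correlated at 0.02 to 0.30. Without both arrays of high 25S signal the Anoxia and the Heat and anoxia groups had a single array each. No other pair of arrays was left out, so fewer calls in that fit cannot be told apart from the loss of arrays. Alternatives were no filter, a filter at log2 6, an intensity trend with robust prior, quantile normalization, median centring, a replicate block, adjusted p below 0.01, no fold threshold, no cross-hybridising probe sets, other ranges, the linear scale, a gene averaged over its probe sets, leave-one-out fits for the 8 arrays, and, added after the data were seen, both arrays of high 25S signal left out.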

Additional observations from a re-analysis of the deposited data

Results flagged for a closer look

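The interaction tests whether the difference under anoxia after heat, which also spans the 6 h after heat, was the same as that without heat, so each named gene with a called interaction is listed here with its log2 value. The difference under anoxia was further up, or less far down, after heat for AT3G04010 (5.75), AT4G32020 (3.62), AT3G19030 (3.55), AT5G55050 (3.39), AT1G16850 (3.17), AT2G39360 (3.14), AT5G45950 (3.06), AT4G29950 (2.99), AT3G06070 (6.48), AT1G69760 (5.89), AT1G30870 (4.66), AT1G34510 (3.58). The same direction was called for AT2G39040 (3.08), AT4G26010 (2.96), XTH16 (1.85), EXLA1 (2.70), CSLC04 (2.50), BIM1 (1.89), TBL37 (1.84), PRA1.B4 (1.83), CSLD2 (1.78), SKU5 (1.67), BZIP53 (1.65), FER (1.55). The same direction was called for PRA1.E (1.55), PRA7 (1.46), LTI30 (2.59). The difference under anoxia was further down, or less far up, after heat for nad1 (-5.50), nad5 (-5.41), AT1G14200 (-5.25), AT4G27657 (-5.15), nad6 (-5.02), nad5 (-4.79), AT5G53680 (-4.73), AT2G07678 (-4.65), AT1G26800 (-4.36), cox1 (-3.57), AT2G07707 (-2.99), psbA (-2.95). This lower direction was also called for AT2G20670 (-2.91), AT1G53540 (-8.95), AT1G52560 (-8.60), AT1G71000 (-7.42), AT5G51440 (-7.03), AT1G54050 (-6.38), Hop3 (-4.86), AT5G48570 (-4.30), AT2G20560 (-4.25), AT3G10020 (-4.50), AT3G03270 (-2.25), AT2G21640 (-2.12). This lower direction was also called for CML37 (-1.57), matR (-4.29), FZL (-1.53), TAPX (-1.87), FOLB2 (-1.92), HEME1 (-1.94), ccb452 (-2.69), COR15B (-5.30). nad5 is given for both of its called probe sets. 

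The 25S ribosomal RNA control of the array, which entered no comparison, read 2816.3 in Heat and anoxia replicate 2 and 4675.7 in Anoxia replicate 2, against 6.9 and 73.5 in the control arrays. Its part in the interactions was not tested.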

How the results depend on the processing

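No alternative that kept the log2 scale turned the sign of a called named gene. Of 59 called named probe sets 30 kept the call without each array in turn, and under the other alternatives 21 of 633 gene results lost a call and 8 gained one. On the linear intensity scale, interactions were positive for AT5G53680 (2501), AT1G53540 (391), Hop3 (2735), AT2G21640 (976) and CML37 (318). Leaving out 1 array gave 185 to 598 probe sets called higher and 153 to 445 lower, and in range 47 to 266 higher and 69 to 240 lower, each against 542, 356, 222 and 189; the spread of a lone array was taken from the other groups. Without both arrays of high 25S signal the counts were 91 higher and 136 lower, and 18 and 56 in range. At adjusted p below 0.01 they were 114 and 112, and 28 and 53 in range. With all 4 means in range 98 were called lower. With the replicate number as a block the fit called 784 higher and 592 lower, and 348 and 339 in range; deviations of same-numbered arrays correlated at 0.02 to 0.30, the labels name no shared batch, and the numbers were not taken as pairs. Of 323 list medians 9 moved by at least the median standard error of the interactions of the list's members. Each group had only 2 arrays, so interactions below about the sizes recovered in simulation would mostly be missed.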
